A study of Homo sapiens with 10 samples.

Results

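The genes of 9 lysine acetyltransferases were followed in K562 cells under drugs that act on transcription: CREBBP and EP300, which encode CBP and p300, KAT2A and KAT2B, which encode GCN5 and PCAF, and KAT5, KAT6A, KAT6B, KAT7 and KAT8, which encode TIP60, MOZ, MORF, HBO1 and MOF. They were chosen by name, as members of the main nuclear families, with earlier results of these data known. All 9 were found among the 59204 human genes of the count tables. K562 is an established human line from a chronic myeloid leukemia whose cells carry erythroid traits. The cells were treated for 2 hours with A-485 (1 µM), an inhibitor of the catalytic domain of CBP and p300, with JQ1 (1 µM), which displaces the BET bromodomain proteins from acetylated chromatin, with AZ-5576 (1 µM), an inhibitor of CDK9, the kinase that lets paused RNA polymerase II elongate, with actinomycin D (1 µg/mL), which binds DNA and stops transcription, or with DMSO, the solvent. All groups, DMSO included, received 100 µM 4-thiouridine in the final 1 hour, and each group held 2 libraries. In SLAM-seq the 4-thiouridine taken up by new RNA is read as T-to-C changes. These libraries read mRNA 3′ ends, so labelled reads, called new RNA below, count mRNA whose 3′ end was made in that hour. They do not tell when transcription of that mRNA began. All reads together count the mRNA pool.

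On GRCh38 (GENCODE release 29) CREBBP spans chr16:3725054-3880726 on the minus strand and EP300 spans chr22:41091786-41180079 on the plus strand. KAT2A lies at chr17:42113108-42121358 (minus) and KAT2B at chr3:20040023-20154404 (plus). The MYST genes are KAT5 at chr11:65711996-65719604 (plus), KAT6A at chr8:41929479-42052026 (minus), KAT6B at chr10:74824927-75032624 (plus), KAT7 at chr17:49788555-49835030 (plus) and KAT8 at chr16:31115754-31131393 (plus). KAT6B is the longest gene, with 207698 bases, and KAT5 the shortest, with 7609 bases.

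Acetyltransferases move an acetyl group from acetyl-CoA to lysines of histones and other proteins, which loosens chromatin and creates docking sites for bromodomain proteins such as the BET family. CBP and p300 are large, closely related coactivators that acetylate histones at enhancers and are recruited by many transcription factors, among them GATA1 in erythroid cells. GCN5 and PCAF work inside the SAGA and ATAC complexes, and the MYST family (TIP60, MOZ, MORF, HBO1 and MOF) works in complexes of its own, with TIP60 known for DNA repair and histone exchange, MOZ and MORF for blood and developmental programmes, HBO1 for replication licensing and MOF for acetylation of histone H4.

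Promoter sequences from RefSeq (GRCh38.p14) were matched for 7 of the 9 genes, and KAT6A and KAT8 are named only. Those of CREBBP, EP300, KAT5 and KAT7 are shown because their new RNA was lower with JQ1 than with DMSO, and that of KAT6B because its new RNA remained under AZ-5576. Each is the 250 bases before a start annotated in RefSeq, written 5′ to 3′ on the gene's strand. These starts differ from those of the GENCODE spans given above. The windows of EP300, KAT5 and KAT6B lie inside those spans, and those of CREBBP and KAT7 reach into them. Capitals mark matches on either strand to the GC box GGGCGG (read CCGCCC on the other strand), the E-box CACGTG and the ETS motif CCGGAAG.
CREBBP (chr16:3880714-3880963, minus strand): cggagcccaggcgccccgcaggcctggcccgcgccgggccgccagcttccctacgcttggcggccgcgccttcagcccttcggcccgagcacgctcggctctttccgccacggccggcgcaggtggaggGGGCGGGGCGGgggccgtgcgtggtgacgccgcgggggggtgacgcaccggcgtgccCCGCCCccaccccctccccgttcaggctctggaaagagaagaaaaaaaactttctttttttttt
EP300 (chr22:41092342-41092591, plus strand): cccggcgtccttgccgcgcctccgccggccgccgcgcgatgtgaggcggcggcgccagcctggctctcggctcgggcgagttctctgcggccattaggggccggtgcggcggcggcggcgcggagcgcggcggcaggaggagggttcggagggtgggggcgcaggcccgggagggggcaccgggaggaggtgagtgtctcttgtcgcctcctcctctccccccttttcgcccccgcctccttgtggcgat
KAT5 (chr11:65712002-65712251, plus strand): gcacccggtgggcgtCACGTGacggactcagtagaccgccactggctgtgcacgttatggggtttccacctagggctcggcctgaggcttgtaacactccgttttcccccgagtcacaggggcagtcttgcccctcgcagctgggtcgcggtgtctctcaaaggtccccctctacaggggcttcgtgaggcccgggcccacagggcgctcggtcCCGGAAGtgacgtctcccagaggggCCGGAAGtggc
KAT7 (chr17:49788431-49788680, plus strand): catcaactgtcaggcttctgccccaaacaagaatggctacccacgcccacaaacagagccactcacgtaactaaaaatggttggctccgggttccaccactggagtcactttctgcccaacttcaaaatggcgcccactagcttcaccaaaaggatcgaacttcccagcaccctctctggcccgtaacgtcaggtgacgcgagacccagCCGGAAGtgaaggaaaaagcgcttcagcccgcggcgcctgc
KAT6B (chr10:74825229-74825478, plus strand): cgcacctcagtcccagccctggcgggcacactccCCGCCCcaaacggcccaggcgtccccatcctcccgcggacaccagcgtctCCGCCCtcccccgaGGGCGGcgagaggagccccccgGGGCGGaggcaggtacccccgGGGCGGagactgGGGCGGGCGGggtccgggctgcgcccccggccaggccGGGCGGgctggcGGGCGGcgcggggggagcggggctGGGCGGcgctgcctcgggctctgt

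Among the 35116 promoters of the same length in the table, 42.6% held GGGCGG, 6.34% held CACGTG and 8.52% held CCGGAAG, both strands searched. The KAT5 window held 1 E-box and 2 ETS motifs, and the KAT7 window held 1 ETS motif. The CREBBP window held 3 GC boxes, of which the first pair overlap, and the KAT6B window held 10. The EP300 window held none of these motifs. The cyclic AMP response element TGACGTCA (in 1.65% of promoters), TATAAA (10.7%) and AGATAA (9.17%) were in none of the 5 windows shown. CpG dinucleotides numbered 31 for CREBBP, 35 for EP300, 19 for KAT5, 14 for KAT7 and 31 for KAT6B, against a median of 11 over all promoters. CREBBP and KAT6B have further annotated starts with other sequences, so these counts hold for the windows shown and not for the whole promoter. The other KAT6B windows, from chr10:74825005 and chr10:74826350, held 0 and 1 GC boxes and 24 and 13 CpG. The other CREBBP window, from chr16:3880121, held 4 GC boxes and 46 CpG. A match of letters does not show that a factor binds.

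The 10 libraries held 14916671 to 17918971 human counts each, and 1817677 to 2212752 counts of the Drosophila spike-in. Levels are given below as scaled counts, which are counts per 1000000 spike-in counts of the same library. Labelled human counts were 411716 and 447455 with A-485, 342847 and 322771 with JQ1, 53503 and 62513 with AZ-5576, 1410 and 1614 with actinomycin D, and 448401 and 434411 with DMSO. The K562 genes GATA1, TAL1, KLF1, NFE2, HBG1, HBG2, HBE1, TFRC and ALAS2 were present in every library. MS4A1, MPO and KRT5 were at 0 in all libraries, whereas EPCAM (929 to 1116 counts) and LYZ (235 to 329 counts) were present. The libraries of a pair differed beyond counting noise, most for JQ1, where the chi-square of total counts was 11.45 per degree of freedom, against 3.95 to 5.93 in the other 4 pairs. Spike-in material went into RNA that was already purified, so every scaled value is per amount of RNA, and fewer cells and less RNA per cell cannot be told apart.

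All 9 genes were detected in total RNA, and 8 of the 9 had labelled reads in DMSO. The labelled share, the percent of a gene's counts that carried T-to-C changes, was 13.2 ± 1.80% for KAT6B, 11.7 ± 0.968% for KAT6A and 11.4 ± 2.13% for KAT7 in DMSO (SD, n = 2). It was 9.65 ± 1.22% for CREBBP and 7.24 ± 1.09% for EP300. The remaining genes had small shares, with 2.88 ± 1.66% for KAT5, 1.45 ± 1.74% for KAT2A and 1.09 ± 0.884% for KAT8. KAT2B had 0 of 72 counts labelled, which allows a share of up to 4.17%, counting error only. Shares of different genes also depend on how many T bases the sequenced 3′ ends hold (18% of the last 200 bases for KAT7, 40% for KAT6B), so this order is a description. Genes needed at least 10 labelled counts in at least 2 libraries for a test of new RNA, and 7 of the 9 passed. KAT2B and KAT8 did not pass, and KAT2A passed only through 1 A-485 and 1 DMSO library. In total RNA all 9 were tested.

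**Figure D1:**
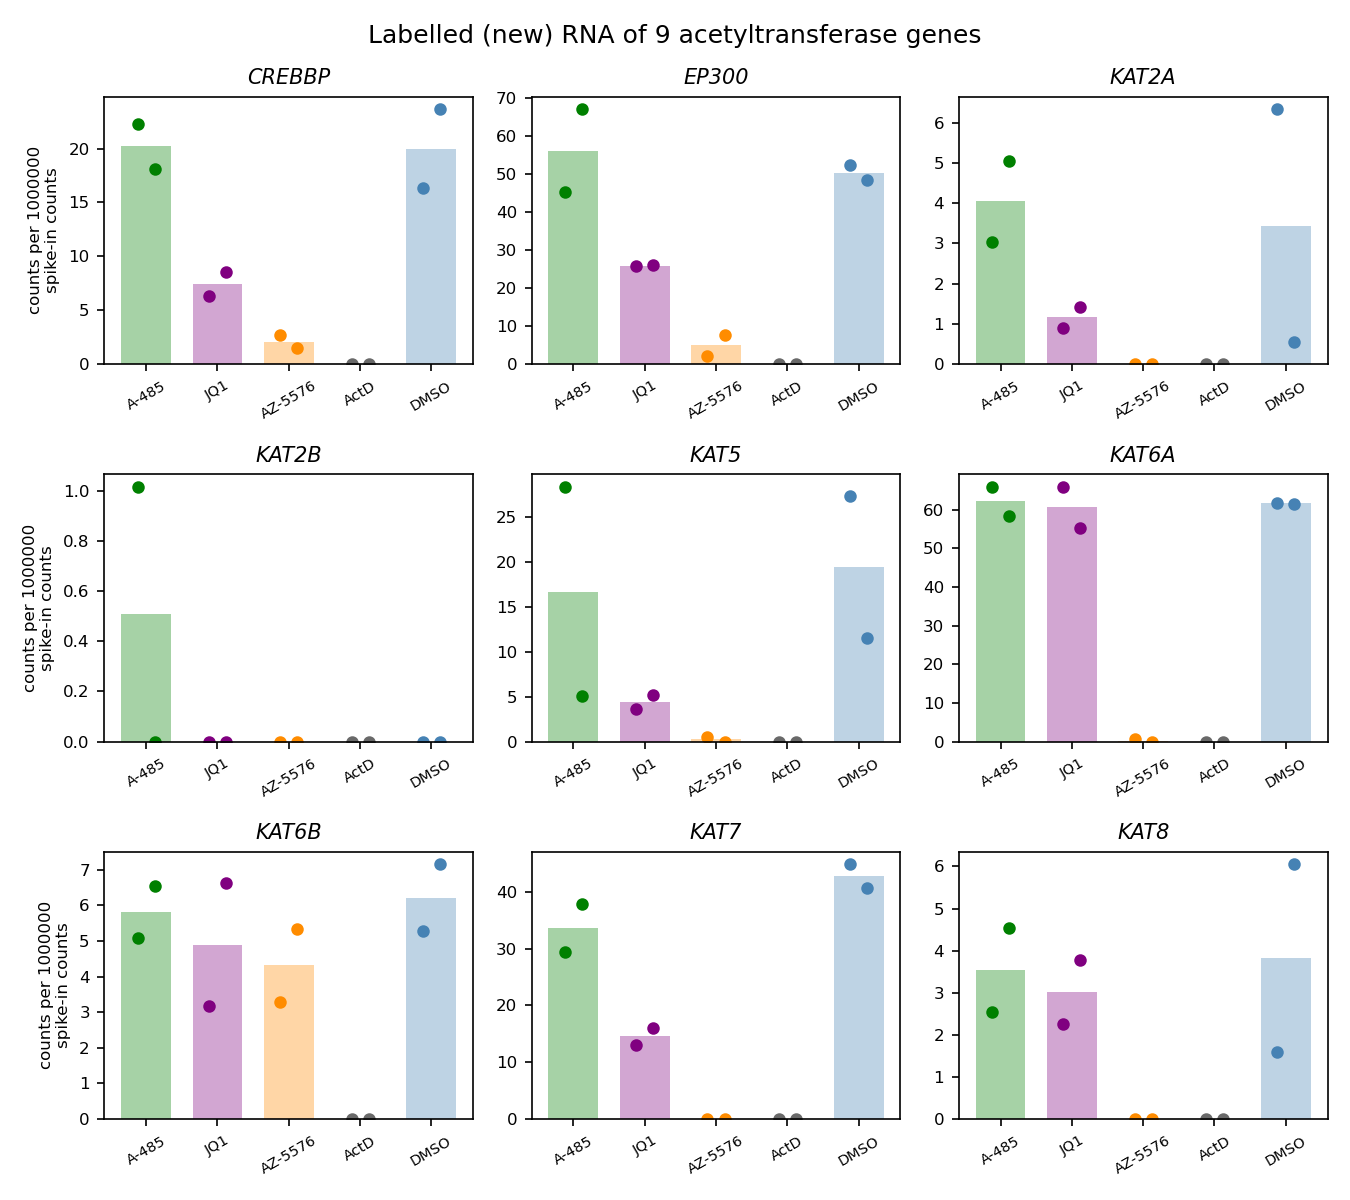
Scaled labelled counts (linear y axis from 0, own scale per gene) for the 9 acetyltransferase genes in A-485, JQ1, AZ-5576, actinomycin D (ActD) and DMSO. Points are the 2 libraries and bars their mean: CREBBP, EP300, KAT5 and KAT7 sit below DMSO with JQ1, a difference called on this scale and not on TMM, KAT6B keeps labelled reads with AZ-5576, and all genes are at 0 with actinomycin D.

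A-485 against DMSO asked whether blocking CBP and p300 activity altered new RNA of their own genes and of the related enzymes. None of the 7 genes tested was called in labelled RNA. EP300 had 45.2 and 67.0 scaled labelled counts with A-485, against 52.2 and 48.4 with DMSO. CREBBP had 22.3 and 18.1 with A-485 and 16.4 and 23.7 with DMSO. The libraries of both groups overlapped for EP300 and for CREBBP. KAT7 had 29.4 and 37.8 with A-485, below 44.8 and 40.7 with DMSO, and was not called. For labelled RNA the log2 fold change had a 95% interval of -0.44 to 0.75 for EP300 and of -0.90 to 0.94 for CREBBP, so changes of that size remain possible. Over the 7 genes the log2 fold changes ran from -0.35 for KAT7 to 0.22 for KAT2A, and the lowest adjusted p was 0.815 (edgeR). Of all 7996 genes tested, 4.86% were lower and 0.163% higher with A-485.

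In the mRNA pool A-485 gave no called change either, with 0 of 9 genes called, against 1.2% of all 14572 genes lower and 0.0343% higher. EP300 had 664 and 719.6 scaled total counts with A-485, against 652 and 748 with DMSO. CREBBP had 214 and 208 with A-485 and 186 and 225 with DMSO. The A-485 libraries lay inside the DMSO range for EP300 and CREBBP. The 95% interval of the log2 fold change of total RNA was -0.25 to 0.22 for EP300 and -0.27 to 0.35 for CREBBP. The lowest adjusted p over the 9 genes was 0.998 (edgeR), and at an unadjusted p under 0.05 the count was also 0 in labelled RNA, against 10.6% of all genes lower and 2.21% higher, and in total RNA, against 5.79% and 1.36%. The labelled share, tested on the ratio of labelled to unlabelled counts, was called for 0 of 7 genes with A-485, against 2.64% of all genes lower and 0.0251% higher.

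JQ1 against DMSO asked how loss of BET proteins from chromatin changed new RNA of these genes, and 4 of the 7 tested were lower, against 28.6% of all genes tested, and 0 were higher, against 1.26%. EP300 had 25.8 and 26.0 scaled labelled counts with JQ1, against 52.2 and 48.4 with DMSO. CREBBP had 6.33 and 8.52 with JQ1 and 16.4 and 23.7 with DMSO. For both coactivator genes each JQ1 library was below both DMSO libraries. The log2 fold change of labelled RNA was -0.96 for EP300 (SE 0.32, edgeR adjusted p = 0.0141) and -1.42 for CREBBP (SE 0.51, edgeR adjusted p = 0.0236).

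Within the MYST family the pattern under JQ1 was mixed. KAT7, the HBO1 gene, had 13.1 and 16.1 scaled labelled counts with JQ1, against 44.8 and 40.7 with DMSO. KAT5, the TIP60 gene, had 3.62 and 5.21 with JQ1, against 27.4 and 11.6 with DMSO. The JQ1 libraries of both genes lay below both DMSO libraries. Labelled RNA had a log2 fold change of -1.55 for KAT7 (SE 0.39, edgeR adjusted p = 0.000717) and -2.14 for KAT5 (SE 0.58, edgeR adjusted p = 0.00191). KAT6A, the MOZ gene, had 66.0 and 55.4 scaled labelled counts with JQ1, against 61.7 and 61.6 with DMSO. Its JQ1 libraries stood on either side of the DMSO pair, and the log2 fold change was -0.02 with a 95% interval of -0.56 to 0.51. KAT6B, the MORF gene, had 3.16 and 6.63 with JQ1 and 5.28 and 7.15 with DMSO, which overlap, on 7 to 14 labelled counts per library. KAT8 had 5 and 8 labelled counts with JQ1 and 3 and 11 with DMSO, and KAT2A had 2 and 3 with JQ1 and 12 and 1 with DMSO, too few to compare.

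The JQ1 calls differed in how far they rested on single libraries and on the scaling. KAT7 stayed called when any 1 of the JQ1 or DMSO libraries was left out, and KAT5 was lost without DMSO replicate 1 (edgeR adjusted p = 0.231). CREBBP (edgeR adjusted p = 0.0539 to 0.255) and EP300 (0.0649 to 0.127) were lost without any 1 library, which left 1 or 2 genes called, while their log2 fold changes stayed between -1.14 and -1.67 for CREBBP and between -0.90 and -1.01 for EP300. Over all genes tested the median log2 fold change of labelled RNA with JQ1 was -0.85. TMM, which aims to set the bulk of genes to no change, moved values up by a median of 0.86, to a median of 0.0095. On that scale 0 of these genes were lower, against 4.91% of all genes, and 1 was higher, against 6.03%. That 1 was KAT6A, whose log2 fold change turned to 0.84 (edgeR adjusted p = 0.0249), while those of CREBBP (-0.56), EP300 (-0.095), KAT5 (-1.28) and KAT7 (-0.69) stayed negative. The labelled share, which needs no scaling between libraries, was called for 0 of 7 genes with JQ1. Over all 7960 genes 15.4% had a called lower and 0.364% a called higher share. Its log2 change was -1.27 for KAT7 (edgeR adjusted p = 0.0684), -1.52 for KAT5 (0.0684), -1.21 for CREBBP (0.160) and -0.88 for EP300 (0.147). For KAT6A it was 0.13 (edgeR adjusted p = 0.859). At an unadjusted p under 0.05 the count of genes with a lower share was 4, against 28.5% of all genes.

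**Figure D2:**
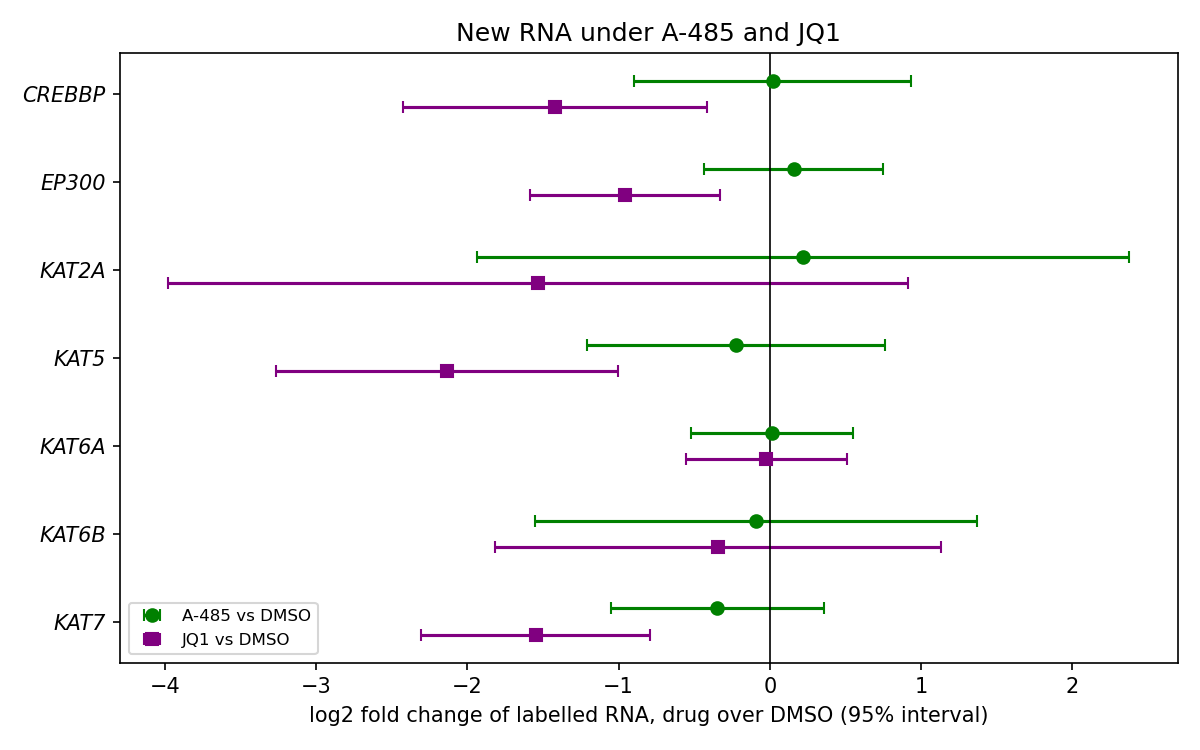
Log2 fold change of labelled RNA over DMSO with its 95% interval (x axis) for the 7 testable acetyltransferase genes (y axis), A-485 as circles and JQ1 as squares, n = 2 libraries per group, scaled to the spike-in. The JQ1 intervals of CREBBP, EP300, KAT5 and KAT7 lie below 0, while the A-485 intervals and the JQ1 intervals of KAT2A, KAT6A and KAT6B include 0. On the TMM scale no JQ1 value of these genes is called lower.

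The 2 drugs that act on acetylation, its writers or its readers, were compared directly. Labelled RNA was higher with A-485 than with JQ1 for 4 of 7 genes, against 24.8% of all genes tested, and lower for 0, against 3.14%. The log2 difference was 1.11 for EP300 (SE 0.32, edgeR adjusted p = 0.00353), 1.44 for CREBBP (SE 0.51, edgeR adjusted p = 0.0224), 1.20 for KAT7 (SE 0.39, edgeR adjusted p = 0.0122) and 1.91 for KAT5 (SE 0.58, edgeR adjusted p = 0.00685). For EP300, CREBBP and KAT7 both A-485 libraries exceeded both JQ1 libraries. For KAT5 they overlapped, with 28.4 and 5.04 scaled labelled counts with A-485 and 3.62 and 5.21 with JQ1. Without A-485 replicate 1 the log2 difference of KAT5 was 0.19 (edgeR adjusted p = 0.907). Leaving out A-485 replicate 1 left 2 genes called, and leaving out A-485 replicate 2 or JQ1 replicate 1 left 1, while TMM left 0, against 6.34% of all genes higher. KAT6A showed a log2 difference of 0.04, with a 95% interval of -0.50 to 0.57, which turned to -0.59 on TMM (edgeR adjusted p = 0.128) and to -0.68 with DESeq2 median-ratio factors (adjusted p = 0.0247).

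In the mRNA pool JQ1 lowered 1 of the 9 genes, KAT5, against 7.35% of all genes tested, and raised 0, against 0.837%. KAT5 had 491 and 413 scaled total counts with JQ1, against 677 and 679 with DMSO, and 622 and 657 with A-485. Both JQ1 libraries lay below every library of the other 2 groups. The log2 fold change of total KAT5 RNA with JQ1 relative to DMSO was -0.59 (SE 0.12, edgeR adjusted p = 0.00162), beside a median of -0.19 over all genes. On the TMM scale, which moved total RNA up by a median of 0.20, its adjusted p was 0.0666 (edgeR). It was higher with A-485 than with JQ1 by 0.50 (log2, SE 0.12, edgeR adjusted p = 0.00824), the only one of the 9 genes called there, against 5.38% of all genes. That call was lost without A-485 replicate 2 (edgeR adjusted p = 0.112), without JQ1 replicate 2 (0.0947) and on TMM (0.0924).

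KAT7 had 268 and 313 scaled total counts with JQ1 and 348 and 413 with DMSO, with no overlap. Its log2 change was -0.39 (SE 0.14, edgeR adjusted p = 0.0701), and it passed without JQ1 replicate 2 (edgeR adjusted p = 0.0432). EP300 had 597 and 687 with JQ1 and 652 and 748 with DMSO, which overlap. The log2 change of total RNA turned with the scaling for EP300 (-0.12 on the spike-in scale and 0.075 on TMM) and for KAT6A (-0.14 and 0.052), and neither gene was called on either scale.

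KAT5 values carry a limit of position. Its 3′ end overlaps that of RNASEH2C, a ribonuclease subunit gene on the opposite strand with 8018 total counts over the 10 libraries against 11180 for KAT5, and whether counting used strand is not stated. RNASEH2C had 801 and 831 total counts with JQ1, and 712 and 762 with DMSO, and its log2 fold change of total RNA was -0.07 (SE 0.12, edgeR adjusted p = 0.739). Its labelled counts were 6 and 15 with JQ1, against 9 and 23 with DMSO. How many KAT5 counts came from the other strand was not tested. KAT8 holds AC135050.6, an intronic gene on the same strand, with 7529 total and 276 labelled counts over the 10 libraries, against 6789 total for KAT8. KAT7 overlaps FAM117A on the opposite strand, with 14061 total and 404 labelled counts, against 6006 total for KAT7. Neither covers the 3′ end of KAT8 or KAT7, and how reads were split between these genes was not tested.

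**Figure D3:**
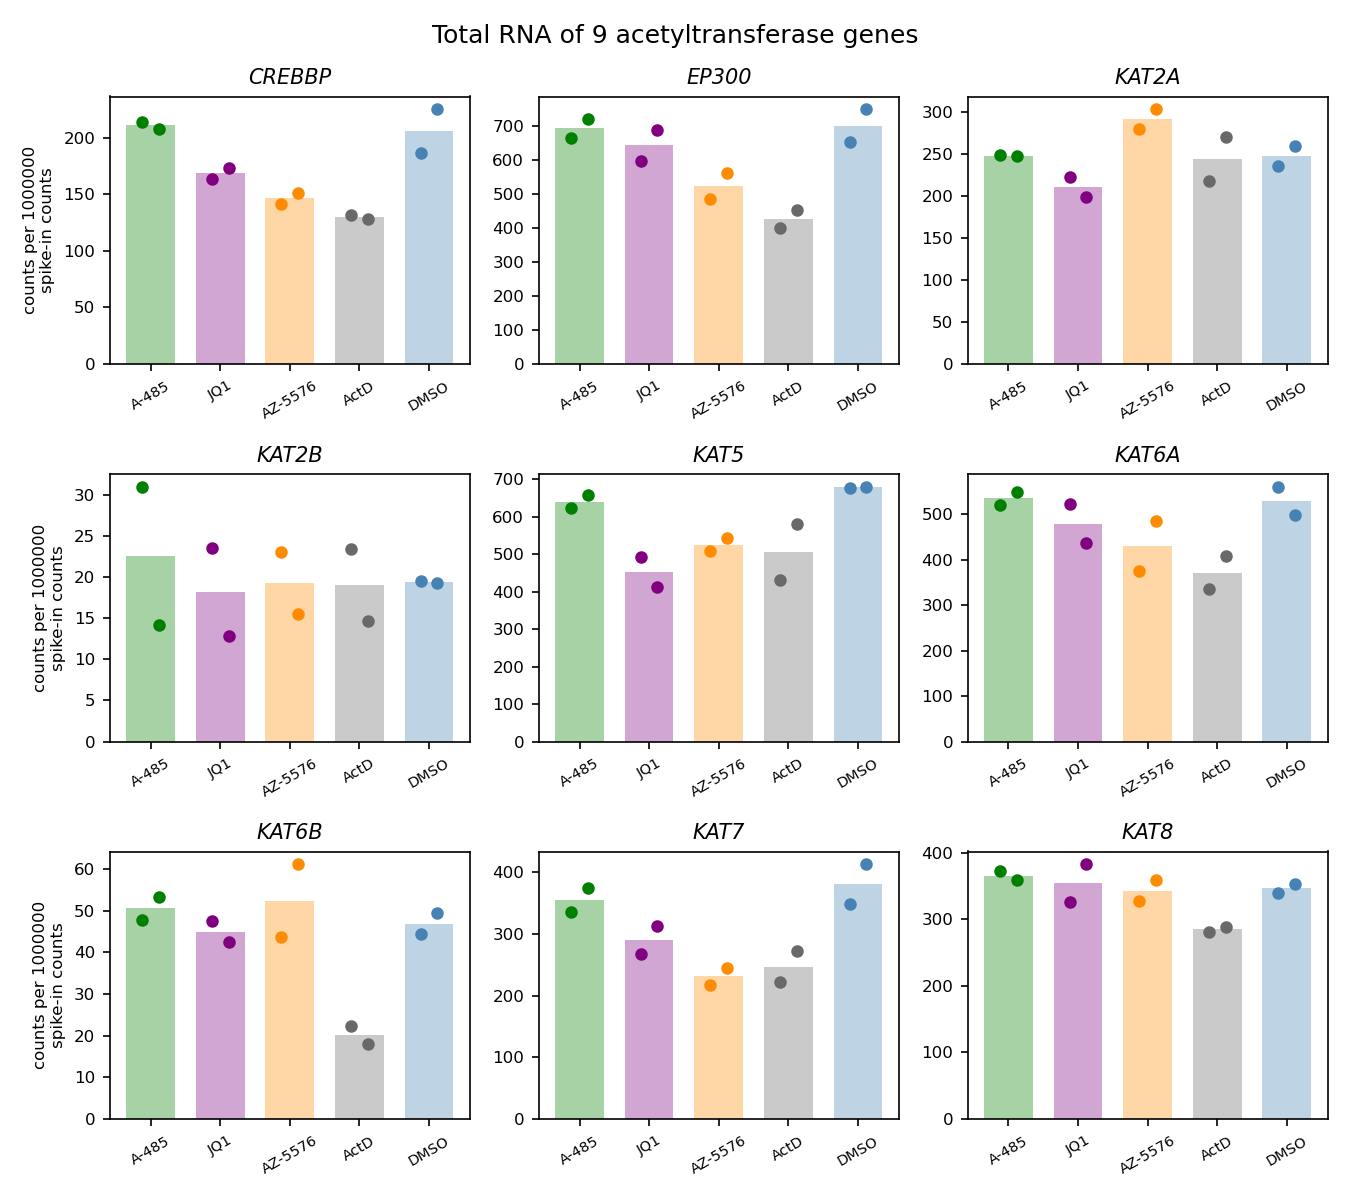
Scaled total counts (linear y axis from 0, own scale per gene) for the same 9 genes and 5 groups, points as libraries and bars as means. KAT5 is low with JQ1 relative to DMSO, which is called on the spike-in scale and not on TMM, and KAT6B is low with actinomycin D, at 22.3 and 17.9, against 44.3 and 49.5 with DMSO.

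Inhibition of CDK9 by AZ-5576 removed most or all labelled reads from 6 of the 7 genes tested, which were called lower, against 94.7% of all genes, while 0 were higher, against 0.2%. KAT7 had 0 and 0 labelled counts with AZ-5576, against 85 and 74 with DMSO, at least 55.5-fold lower with a floor of 3 counts over the group. KAT6A had 1 and 0 with AZ-5576 and 117 and 112 with DMSO, a ratio of 240 (95% counting interval 42.6 to 9511). KAT5 had 1 and 0 with AZ-5576, against 52 and 21 with DMSO, a ratio of 76.4 (13.3 to 3060). KAT2A was at 0 and 0 with AZ-5576, against 12 and 1 with DMSO. KAT8, which was not tested, was at 0 and 0 against 3 and 11. Both had too few DMSO counts for a fold. The KAT2A call rests on DMSO replicate 1, without which the gene would not have passed the count filter.

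CREBBP and EP300 kept a small amount of new RNA under AZ-5576. EP300 had 2.19 and 7.77 scaled labelled counts with AZ-5576, against 52.2 and 48.4 with DMSO. CREBBP had 2.74 and 1.46 with AZ-5576 and 16.4 and 23.7 with DMSO. The groups were far apart for both genes, at 9.89% and 10.5% of the DMSO mean. Relative to DMSO, labelled RNA had a log2 fold change of -3.28 for EP300 (SE 0.41, edgeR adjusted p = 4.9e-15) and -3.24 for CREBBP (SE 0.63, edgeR adjusted p = 6.2e-07). Beside these values the median of all genes was -5.94. TMM moved labelled values up by a median of 3.31, yet the median of all genes on that scale was still -3.05. There the log2 fold changes were 0.26 for EP300 and 0.30 for CREBBP, neither called. On TMM 2 of the 7 genes were lower, against 26.1% of all genes, and 1 higher, against 6.07%.

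KAT6B was the 1 tested gene not called under AZ-5576. It had 6 and 11 labelled counts with AZ-5576, against 10 and 13 with DMSO, or 3.28 and 5.34 scaled counts against 5.28 and 7.15. The libraries of the groups overlapped, and the AZ-5576 mean was 69.4% of the DMSO mean. The log2 fold change of labelled RNA was -0.51 (SE 0.77, 95% interval -2.02 to 1.00, edgeR adjusted p = 0.514), which stands at percentile 98.0 of all 7996 genes, counted from the lowest. On TMM the change of KAT6B was 3.03 (edgeR adjusted p = 0.000859). Its labelled share was 7.50% and 8.73% with AZ-5576, against 11.9% and 14.4% with DMSO, and here the groups did not overlap. The log2 change of that share was -0.76 (SE 0.83, edgeR adjusted p = 0.370). The other 6 tested genes had a called lower share, against 93.6% of all genes lower and 0.0503% higher. Whether KAT6B differed from the other acetyltransferase genes in its response was not tested. In actinomycin D the same gene had 0 and 0 labelled counts, at least 8.65-fold lower than in DMSO.

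Actinomycin D left 0 labelled counts in both libraries for all 9 genes. The 7 tested were all called lower, in labelled RNA against 99.2% of all genes and in labelled share against 98.6%. For KAT2A these calls again rest on DMSO replicate 1. The bounds on the fold loss took the DMSO counts as they stand. They were at least 86.1-fold for KAT6A, 70.3-fold for EP300, 59.8-fold for KAT7, 27.8-fold for CREBBP and 27.5-fold for KAT5. KAT8, with 3 and 11 labelled counts in DMSO, and KAT2A, with 12 and 1, had too few for a bound. KAT2B, at 0 in DMSO too, gives no fold. An actinomycin D library held at most 1614 labelled counts over all genes, and with TMM 1 of the 7 genes was called lower, against 8.89% of all genes. The median log2 fold change of all genes on that scale was -6.60.

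Total RNA after 2 hours of actinomycin D was compared with DMSO gene by gene, and differences between genes were not tested. After actinomycin D, KAT6B had 22.3 and 17.9 scaled total counts, against 44.3 and 49.5 with DMSO. EP300 had 399 and 453 with actinomycin D and 652 and 748 with DMSO. CREBBP had 132 and 128 with actinomycin D and 186 and 225 with DMSO. The actinomycin D libraries of these genes were below both DMSO libraries. The log2 fold change of total RNA was -1.22 for KAT6B (SE 0.29, edgeR adjusted p = 0.00181), -0.71 for EP300 (SE 0.12, edgeR adjusted p = 2.1e-05) and -0.66 for CREBBP (SE 0.16, edgeR adjusted p = 0.00191).

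KAT7, KAT6A and KAT5 completed the 6 of 9 genes that were lower in total RNA with actinomycin D, against 19.7% of all genes tested and a median log2 change of -0.27, while 0 were higher, against 0.336%. Their log2 fold changes were -0.62 for KAT7 (edgeR adjusted p = 0.000983), -0.51 for KAT6A (0.0046) and -0.43 for KAT5 (0.0116). KAT8, the MOF gene, had 281 and 288 scaled total counts with actinomycin D and 339.8 and 353 with DMSO, without overlap, and a log2 change of -0.28 (edgeR adjusted p = 0.112). KAT2A and KAT2B stood at 98.3% and 98.1% of the DMSO mean, against 42.9% for KAT6B. Leaving out DMSO replicate 2 left EP300, KAT6A and KAT6B called, and leaving out actinomycin D replicate 1 left CREBBP, EP300 and KAT6B. TMM moved total RNA up by a median of 0.25 and left KAT5 and KAT6A uncalled, with 4 genes lower, against 7.91% of all genes.

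AZ-5576 lowered total RNA of 4 of the 9 genes relative to DMSO, against 12.9% of all genes tested and a median log2 change of -0.15, and raised 0, against 0.782%. KAT7 had 217 and 245 scaled total counts with AZ-5576, against 348 and 413 with DMSO. EP300 had 486 and 561.7 with AZ-5576 and 652 and 748 with DMSO. CREBBP had 142 and 151 with AZ-5576 and 186 and 225 with DMSO. Both AZ-5576 libraries were below both DMSO libraries for these genes. Total RNA had a log2 fold change of -0.72 for KAT7 (SE 0.14, edgeR adjusted p = 0.000216), -0.49 for CREBBP (SE 0.16, edgeR adjusted p = 0.0293), -0.42 for EP300 (SE 0.12, edgeR adjusted p = 0.0126) and -0.37 for KAT5 (SE 0.12, edgeR adjusted p = 0.0394). KAT7 stayed called when any 1 of the AZ-5576 or DMSO libraries was left out. KAT5 was lost each time, at log2 fold changes of -0.32 to -0.42. CREBBP stayed called only without DMSO replicate 1, and EP300 only without AZ-5576 replicate 2 or DMSO replicate 1. KAT6A was added without AZ-5576 replicate 2, at -0.49. On TMM, which moved values up by a median of 0.15, 1 gene was lower, KAT7, against 8.3% of all genes, and 1 was higher, against 3.75%, KAT2A at 0.38 (edgeR adjusted p = 0.0403). KAT2A had 279.5 and 303 with AZ-5576 and 236 and 259.7 with DMSO, with no overlap.

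**Figure D4:**
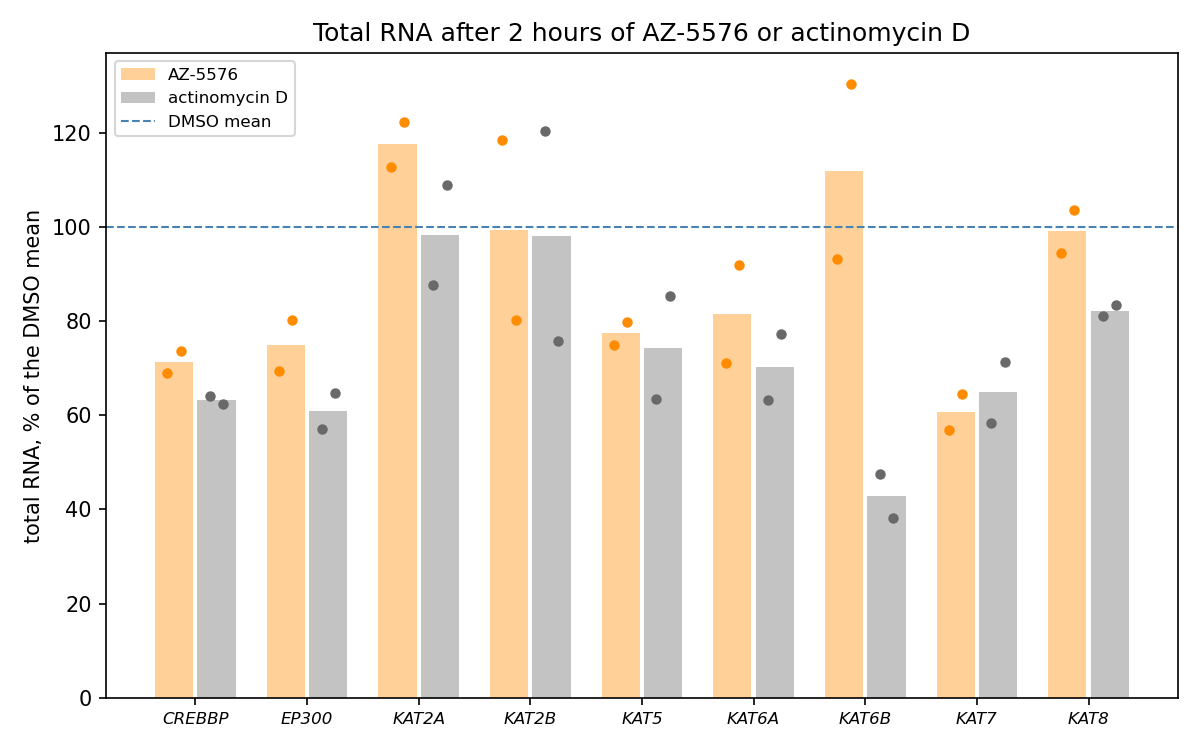
Total RNA as percent of the DMSO mean (y axis, linear from 0) for each acetyltransferase gene (x axis) with AZ-5576 and actinomycin D, scaled to the spike-in, points as libraries and bars as means. KAT6B stands at 112% with AZ-5576 and 42.9% with actinomycin D, whereas KAT7 stands at 60.7% and 64.9%.

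A direct comparison of AZ-5576 with actinomycin D was added after the values of KAT6B had been seen. Total RNA of KAT6B was 43.8 and 61.2 scaled counts with AZ-5576, against 22.3 and 17.9 with actinomycin D. The groups did not overlap, and the log2 difference was 1.39 (SE 0.28, 95% interval 0.81 to 1.96, edgeR adjusted p = 0.00225). KAT6B was the 1 gene of 9 called higher, against 2.0% of all genes tested, and 0 were lower, against 0.371%. On TMM its difference was 1.28 (edgeR adjusted p = 0.00956). The call was lost without AZ-5576 replicate 2 (edgeR adjusted p = 0.127) or actinomycin D replicate 2 (0.0777). In labelled RNA 3 of 7 genes were higher with AZ-5576, against 20.5% of all genes, namely EP300 (4 and 16 counts against 0 and 0), KAT6B (6 and 11 against 0 and 0) and CREBBP (5 and 3 against 0 and 0). These were at least 7.19-fold, 6.11-fold and 2.87-fold higher, with a floor of 3 counts over the actinomycin D libraries. The AZ-5576 counts were taken as they stand, without their own counting error. CREBBP was lost when either actinomycin D library or AZ-5576 replicate 1 was left out (edgeR adjusted p = 0.0692 to 0.156). On TMM none of the 3 was called (edgeR adjusted p = 0.0676 for EP300, 0.147 for KAT6B and 0.419 for CREBBP), against 5.39% of all genes higher.

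Over the 10 libraries, total RNA of EP300 and CREBBP had a Pearson r of 0.926 on the log2 scale, which put CREBBP at rank 109 of 10252 genes for likeness to EP300, and EP300 at rank 259 for likeness to CREBBP. KAT7 (0.870), KAT8 (0.864) and KAT6A (0.830) came next among the 9 genes in likeness to EP300. KAT6B (0.741) and KAT5 (0.502) followed, and KAT2A was at -0.139, at rank 9059. KAT2B was not ranked. The genes most like EP300 were PYM1 (0.983), FXR1 (0.982) and E2F1 (0.981), and those most like CREBBP were MTG2 (0.991), TRMT12 (0.986) and NGDN (0.985). All points share their libraries and spike-in totals, so these values describe the libraries and no more.

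Partners of these enzymes and related genes gave the setting in which the 9 genes moved. Of 99 genes in 7 lists of partners, other acetyltransferases and deacetylases, 77 were tested in labelled RNA and 98 in total RNA. With A-485, 2 of 77 were lower in labelled RNA, against 4.86% of all genes, and 1 of 98 in total RNA, against 1.2%, with 0 higher in either. CITED2, which encodes an inhibitor that competes for CBP and p300, had 41 and 38 total counts with A-485 and 173 and 168 with DMSO. The groups were far apart, and the log2 fold change of total RNA of CITED2 was -2.20 with A-485 (SE 0.32, edgeR adjusted p = 1.1e-05). It was -1.11 with JQ1 (edgeR adjusted p = 0.0119), -3.95 with AZ-5576 (2.1e-10) and -3.09 with actinomycin D (5.3e-09). HDAC7, a class IIa deacetylase gene, had 10 and 13 labelled counts with A-485, 9 and 21 with JQ1, and 76 and 72 with DMSO. Its labelled RNA had a log2 fold change of -2.76 with A-485 (SE 0.50, edgeR adjusted p = 4.0e-06) and -2.51 with JQ1 (SE 0.49, edgeR adjusted p = 8.2e-06). HDAC7 was also lower with AZ-5576, as were 94.7% of all genes. It had 6 and 9 labelled counts there, a log2 fold change of -3.35 (SE 0.54, edgeR adjusted p = 1.3e-09).

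With JQ1, 24 of the 77 listed genes were lower in labelled RNA, against 28.6% of all genes, and 1 was higher, against 1.26%. The median over the lists was -0.90, beside -0.85 over all genes. By list, the lower counts were 6 of 14 for the TIP60 complex of KAT5, 3 of 8 for the MOZ, MORF and HBO1 complexes, 3 of 11 for the MSL and NSL complexes of KAT8, 4 of 17 for the SAGA and ATAC complexes of KAT2A and KAT2B, 1 of 7 for partners of CBP and p300, 5 of 13 for other acetyltransferases and 2 of 7 for deacetylases. VPS72, a histone-exchange subunit, had 16 and 4 labelled counts with JQ1, against 53 and 49 with DMSO, and MSL1, a scaffold of the MSL complex, had 19 and 14 against 81 and 64. TAF9, a subunit shared by SAGA and TFIID, was the 1 that rose, with 168 and 139 labelled counts with JQ1, against 74 and 70 with DMSO (log2 0.87, SE 0.30, edgeR adjusted p = 0.0177). In total RNA 14 of 98 were lower with JQ1, against 7.35% of all genes, 18 with AZ-5576, against 12.9%, and 33 with actinomycin D, against 19.7%, and 0 were higher with any of the 3. With AZ-5576 the partners of KAT6B and KAT7 included BRPF1, a scaffold of MOZ and MORF, with 352 and 458 total counts with AZ-5576 against 809 and 1022 with DMSO (log2 -1.25, SE 0.13, edgeR adjusted p = 3.7e-09).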

How the data were processed

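Labelled and total RNA were measured by SLAM-seq in 10 K562 libraries, 2 per group, with groups taken from the sample titles. The deposited tables hold raw counts per gene, not normalized, of all human reads, of human reads with T-to-C changes and of Drosophila spike-in reads. Per the labels' protocols, RNA was alkylated with iodoacetamide, mixed with 5% Drosophila S2 material after purification and made into QuantSeq 3′ mRNA libraries. The submitters' processing notes name Trim Galore 0.6.5, bcl2fastq 2.17.1.14 and bedtools, and the builds dm6 and hg38. Aligner, conversion caller and strand setting: not given in the sources used here. Counts at 3′ ends were not divided by length, so levels of different genes were not compared.

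Symbols came from a gene name table that held 55381 of the 59204 identifiers, and positions from GENCODE release 29. Two-sided robust quasi-likelihood tests of edgeR 4.0.16 (R 4.3.3) were run on all 10 libraries together. Library size was the spike-in column sum, a gene needed 10 or more counts in 2 or more libraries, and p-values had Benjamini-Hochberg adjustment over all genes, with calls at an adjusted p under 0.05. The SE is the log2 fold change divided by the square root of the F statistic. The labelled share was tested on labelled and unlabelled counts with a term per library. Nothing in the labels says that the libraries of a group came from separate cultures, so p-values measure only the spread between these libraries, which may be technical. A permutation of 2 against 2 libraries cannot give a two-sided p below 0.33, so none was used. Reads carry no stated molecular identifiers, and intervals and floors cover counting error only. A floor covers only the counting error of the group at 0 and takes the count of the other group as it stands.

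Alternatives were TMM, total human counts as library size, DESeq2 1.42.0, other filters, only the compared groups, a replicate block and leaving out each library. Besides the 9 genes, the naming rule took up to 3 called genes per gene list and comparison, of which some are named. These had the largest change and a mean of at least 50 counts. The rule also took the 3 genes most correlated with EP300 and CREBBP. The members and lists were chosen with earlier results of these data known.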

Additional observations from a re-analysis of the deposited data

How the results depend on the processing

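Results were recomputed under each alternative. Of 525 log2 fold changes of the 9 genes under settings other than leaving out a library, 450 kept direction and side of the threshold, 55 lost and 5 gained the call, and 15 turned. Not counted were 43 log2 fold changes within 1 SE of 0 that were called under no setting. In labelled RNA those that turned were AZ-5576 on TMM (0.30 for CREBBP, 0.26 for EP300, 3.03 for KAT6B) and with DESeq2 median-ratio factors (2.50 for KAT6B), and KAT6A with JQ1 (0.84 with TMM, 0.67 with DESeq2, 0.11 with human totals) and in A-485 against JQ1 (-0.59, -0.68 and -0.075). KAT6B under both scalings, and KAT6A with JQ1 under TMM and DESeq2 and in A-485 against JQ1 under DESeq2, were then called. In total RNA those that turned, not called, were with JQ1 for EP300 (0.074 with DESeq2, 0.075 with TMM, 0.0097 with human totals) and KAT6A (0.050 and 0.052 with the first 2). Leaving out 1 library turned KAT6A in labelled RNA, which ranged from -0.16 to 0.097 with JQ1 (turned without JQ1 replicate 2) and from -0.085 to 0.17 in A-485 against JQ1 (turned without A-485 replicate 1, at -0.055, or JQ1 replicate 2). The cause was not tested.

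With TMM, the counts in labelled RNA were 0 lower and 1 higher for JQ1, 2 and 1 for AZ-5576, 1 lower for actinomycin D, 0 higher for A-485 against JQ1 and 0 higher for AZ-5576 against actinomycin D. In total RNA they were 0 lower for JQ1, 1 lower and 1 higher for AZ-5576, and 0 higher for A-485 against JQ1. DESeq2 with median-ratio factors gave 0 lower and 1 higher (JQ1), 2 and 1 (AZ-5576), 2 lower (actinomycin D), 1 lower and 0 higher (A-485 against JQ1) and 0 higher (AZ-5576 against actinomycin D) in labelled RNA. In total RNA it gave 0 lower (JQ1), 1 and 1 (AZ-5576), 2 lower (actinomycin D) and 0 higher (A-485 against JQ1). Human totals as library size gave 0 for total RNA of A-485 against JQ1. The stricter filter tested fewer genes and left 4 lower with actinomycin D in labelled RNA and in share, and gave 1 lower share with JQ1, as did the fit of the 2 groups only.

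Leaving out 1 library gave 1 to 3 higher in labelled RNA for A-485 against JQ1 and 1 to 2 lower for JQ1. In total RNA it gave 0 to 1 higher for A-485 against JQ1, 1 to 3 lower for AZ-5576, 3 to 6 lower for actinomycin D, 1 to 2 lower for JQ1 and 0 to 1 higher for AZ-5576 against actinomycin D. A lone library was assumed to vary like the other groups. The labels tie the replicate numbers to nothing shared, and deviations of same-numbered libraries correlated at -0.14 to 0.20 over genes. The replicate block gave 2 lower for JQ1 in total RNA, KAT7 being added (edgeR adjusted p = 0.0167), and changed no other count. Crossed numbers for AZ-5576 against actinomycin D in labelled RNA gave 3 higher and 0 lower, as without a block. Depth limits KAT2A, KAT2B, KAT6B and KAT8, with at most 14 labelled counts per library.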
